A study of Mus musculus with 15 samples.

Results

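The genes described here are the 7 genes of MHC class II antigen presentation whose symbols were H2-Aa, H2-Ab1, H2-Eb1, H2-DMa, H2-DMb1, Cd74 and Ciita, chosen by symbol from the 55487 genes of the count table; each symbol matched 1 row. Gene expression was measured by 3′ RNA sequencing (QuantSeq, which reads a tag near the polyadenylated end of each transcript) in skin of 3-week-old mice of the C57BL/6 background. Skin of OTULIN E-KO mice (Otulin fl/fl K14-Cre, which lack the deubiquitinase OTULIN in keratinocytes) was sampled from lesional areas in 5 libraries and from non-lesional areas in 5 libraries, and skin of floxed littermates without Cre (WT) gave the other 5. Because K14-Cre acts in keratinocytes and total skin RNA was sequenced, dermal, immune and muscle RNA of the OTULIN E-KO libraries came from cells that kept the gene. The study describes 5 mice per group; whether a lesional and a non-lesional sample came from the same mouse is not stated in the sources used here.

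MHC class II molecules display peptides from endosomes and lysosomes to CD4+ T cells. An α and a β chain are assembled in the endoplasmic reticulum with the invariant chain, which blocks the groove and routes the complex to endosomes. There proteases degrade the invariant chain, and the DM molecule exchanges its last fragment for other peptides. In skin the molecules are known from Langerhans cells, dermal dendritic cells, macrophages and B cells, and IFN-γ can induce them in other cells, keratinocytes included, through the coactivator CIITA.

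CIITA does not bind DNA itself. It is recruited by the RFX complex, which binds the X box of class II promoters, and by NF-Y, which binds the Y box. The proximal promoters of 3 genes are shown because they carry, or differ in, exact matches to these motifs. Each stretch covers the bases from -120 to -21 relative to the transcription start of RefSeq (GRCm38.p6). It is written 5′ to 3′ on the strand of the gene. In capitals is every match to the X box core GNAACNGAT and to the Y box ATTGG. Both motifs were searched on both strands, and a Y box on the other strand reads CCAAT. H2-Eb1 lies at chr17:34305747-34305846 on the plus strand, H2-DMb1 at chr17:34153071-34153170 on the plus strand and H2-Aa at chr17:34287844-34287943 on the minus strand.
H2-Eb1: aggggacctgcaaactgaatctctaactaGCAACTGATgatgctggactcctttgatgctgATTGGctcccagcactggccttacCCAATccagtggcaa
H2-DMb1: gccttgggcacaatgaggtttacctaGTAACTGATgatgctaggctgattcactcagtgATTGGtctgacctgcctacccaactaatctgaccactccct
H2-Aa: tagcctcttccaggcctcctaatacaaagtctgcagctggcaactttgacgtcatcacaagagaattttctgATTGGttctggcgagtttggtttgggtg
H2-Eb1 and H2-DMb1 held an X box core followed by a Y box in the same direction, with 23 and 24 bases between them. H2-Aa had an exact match only to the Y box, at -48 to -44. The search allowed no departure from the fixed letters of the X box core. H2-Aa is therefore not shown to lack an X box. The search covered the 250 bases before the start. X box cores were found in 1.75% of the 32851 promoters of the table, Y boxes in 33.8% and both in 0.591%. H2-DMa, with 2 promoters listed, had no exact match to either motif in the first and a Y box at -198 to -194 in the second. The bases that follow this second start were not found in an H2-DMa transcript of GENCODE. Both promoters lie inside the annotated span of the gene (chr17:34119541-34139101). No other start of H2-DMa was searched, so these results do not cover all its possible promoters. The table gave promoters for 4 of the 7 genes, and H2-Ab1, Cd74 and Ciita had none. A match is a match of letters and was not tested as a binding site.

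Library totals ran from 1962604 to 2567138 counts. Otulin itself, the deleted gene, was measured first as a check of the labels. Its level in CPM (counts relative to the library total, scaled by the trimmed mean of M values, TMM) was 22.9, 28.0, 28.2, 12.2 and 22.9 in WT replicates 1, 4, 7, 10 and 13, it was 30.7, 21.3, 28.4, 22.04 and 27.1 in non-lesional replicates 3, 6, 9, 12 and 15, and it was 27.2, 19.0, 25.6, 24.1 and 26.7 in lesional replicates 2, 5, 8, 11 and 14. The log2 fold change was 0.18 (SE 0.20, adjusted p = 0.9998 in edgeR) for non-lesional and 0.10 (SE 0.22, adjusted p = 0.972) for lesional against WT skin. The groups overlapped, so the 3′ tags of Otulin in whole skin did not separate the genotypes; whether the tags lie outside the deleted exons was not tested. Lesional replicates 2 and 11 stood apart from all other libraries. In them S100a8, a calcium-binding protein abundant in neutrophils and inflamed keratinocytes, was at 1281 and 2408 CPM, while in the other 3 lesional libraries it was between 2.40 and 4.62 CPM. Krt6b, a keratin of hyperplastic epidermis, was at 3531 and 8733 CPM in the same 2 libraries and between 1.20 and 4.85 CPM in the other 3. Non-lesional replicate 3 had 115.8 CPM of S100a8 and 220.4 CPM of Krt6b. Fold changes of the 7 genes in lesional skin, and those of the other genes and lists that moved with these 2 libraries, are therefore given with and without them.

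All 7 genes were expressed in all 15 libraries, and together they took between 0.0604% and 0.1125% of the counts of a library. No difference between groups passed the test for any of the 7. In edgeR's quasi-likelihood test, with Benjamini-Hochberg adjustment over all genes tested, the adjusted p-values of the 7 genes were 0.9998 for non-lesional against WT skin, between 0.928 and 0.995 for lesional against WT skin, and between 0.973 and 0.998 for lesional against non-lesional skin. No member had an unadjusted p under 0.05, and none had groups that did not overlap. DESeq2 and limma also called 0 of the 7 members in each comparison. At the adjusted threshold edgeR called 0% of all genes in each comparison, of 13021, 12918 and 12864 tested in that order. At an unadjusted p under 0.05 the shares of all genes that were higher or lower were 1.85% and 1.31% in non-lesional against WT skin (241 and 170 genes), 3.24% and 1.56% in lesional against WT skin (419 and 202 genes) and 2.89% and 1.33% in lesional against non-lesional skin (372 and 171 genes). The shares of all genes whose 5 libraries were all above, or all below, those of the other group were 0.392% and 0.269%, 0.441% and 0.248%, and 0.295% and 0.326%. DESeq2 called 3, 1 and 0 genes in the 3 comparisons and limma called 0 in each.

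The 95% intervals state how large a difference these libraries could still hold. For non-lesional against WT skin, the interval of the fold change reached from 0.568 (H2-DMa) to 1.88 (Ciita) over the 7 genes. For lesional against WT skin it reached from 0.581 (H2-DMa) to 1.81 (H2-DMb1), and for lesional against non-lesional skin from 0.557 (Ciita) to 1.72 (H2-DMb1). The median log2 fold change of the 7 genes was 0.04, 0.07 and 0.08 in these comparisons, beside -0.003, -0.003 and 0.003 over all genes tested. Leaving out lesional replicates 2 and 11 gave medians of 0.01 against WT and -0.02 against non-lesional skin. Single libraries moved these medians by more than their size. For non-lesional against WT skin the median ran from -0.07 without WT replicate 4 to 0.19 without WT replicate 13, and it was also below 0 without WT replicates 1 or 10 or non-lesional replicate 9. For lesional against WT skin it ran from -0.03 without WT replicate 4 to 0.25 without WT replicate 13, and for lesional against non-lesional skin from 0.02 without non-lesional replicate 3 to 0.19 without non-lesional replicate 9. In bulk skin a change in the number of class II cells and a change in class II RNA per cell cannot be told apart.

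Muscle RNA also varied between the libraries and is given beside the class II level. The summed level of 6 skeletal muscle markers was 13710, 21100, 17170, 25540 and 13030 CPM in WT replicates 1, 4, 7, 10 and 13, where the summed level of the 7 class II genes was 723.5, 621.8, 853.0, 701.9 and 1085 CPM. In non-lesional replicates 3, 6, 9, 12 and 15 muscle was at 23270, 21700, 12770, 15730 and 20950 CPM and class II at 702.8, 692.2, 970.0, 773.4 and 843.0 CPM. In both groups the library with the highest class II level had the lowest muscle level. In lesional replicates 2, 5, 8, 11 and 14 muscle was at 11030, 23360, 19070, 2687 and 27630 CPM and class II at 944.4, 651.5, 918.1, 909.1 and 828.1 CPM. The library with the lowest class II level of the lesional group, replicate 5, was second in muscle, and replicate 11 had the lowest muscle level of all 15. The part of tissue composition in the class II values was not tested.

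**Figure D1:**
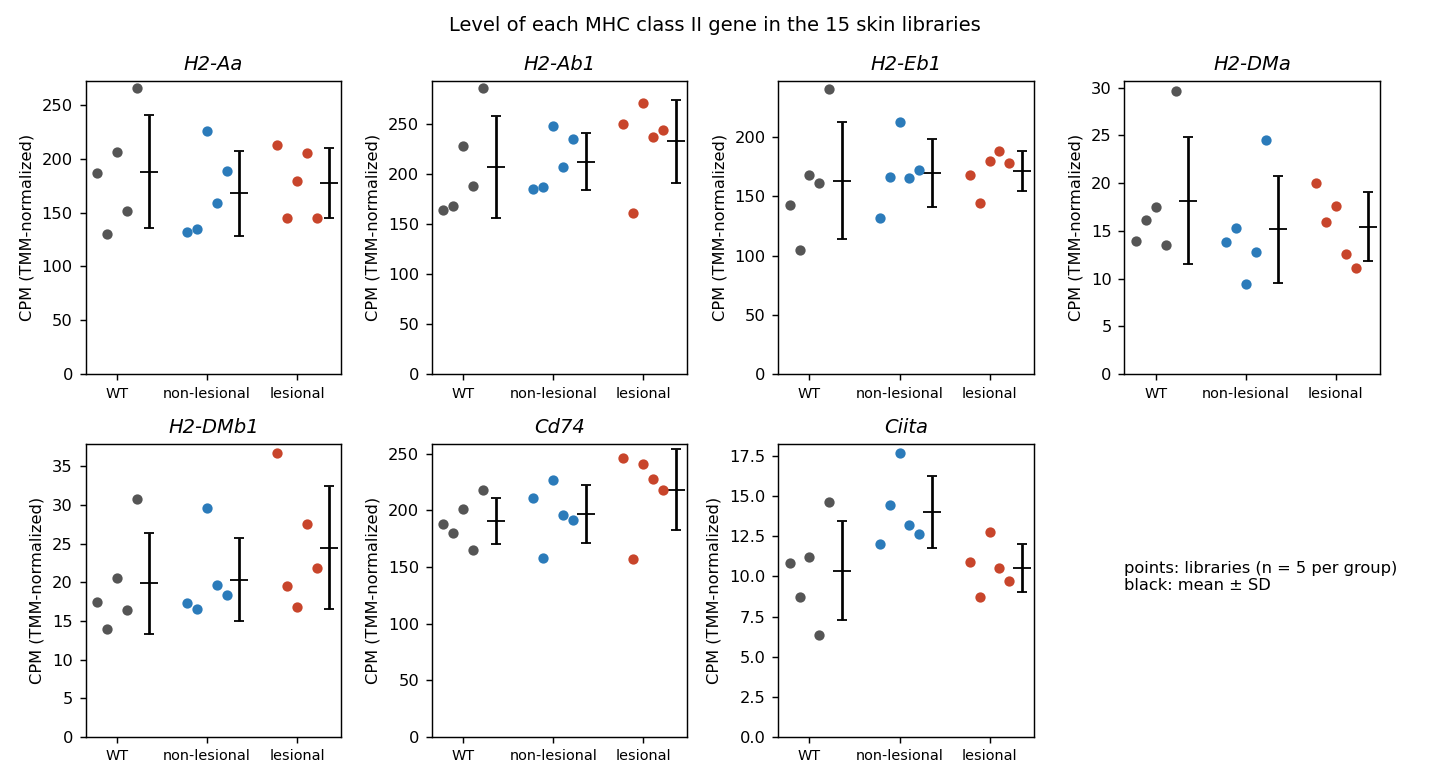
Each panel plots the level of 1 gene in CPM (TMM-normalized, linear axis from 0) in the 5 WT, 5 non-lesional and 5 lesional libraries, with points ordered by replicate number and the mean ± SD of each group in black. The groups overlap in all 7 panels, and WT replicate 13 is the highest WT library in each.

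The α and β chains of the classical class II molecules form the peptide-binding groove. H2-Aa encodes the α chain of I-A. It lies at chr17:34282744-34287823 (GRCm38) on the minus strand. Its level was 186.7, 129.7, 206.4, 151.8 and 265.2 CPM in WT replicates 1, 4, 7, 10 and 13, it was 132.3, 134.3, 225.7, 159.1 and 188.3 CPM in non-lesional replicates 3, 6, 9, 12 and 15, and it was 212.3, 144.7, 179.1, 205.6 and 145.1 CPM in lesional replicates 2, 5, 8, 11 and 14. WT held both the highest and the lowest library, and the 3 ranges overlapped. The group means were 187.9 ± 52.5, 167.9 ± 39.5 and 177.4 ± 32.1 CPM (SD, n = 5 each). The log2 fold change was -0.16 (SE 0.19) for non-lesional and -0.08 (SE 0.19) for lesional against WT skin, and 0.08 (SE 0.17) between lesional and non-lesional skin. The last 2 values were -0.27 (SE 0.20) and -0.10 (SE 0.17) without lesional replicates 2 and 11.

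H2-Ab1 encodes the β chain that pairs with H2-Aa, and lies at chr17:34257689-34269419 on the plus strand. It was at 163.8, 168.6, 228.4, 188.0 and 286.6 CPM in the WT libraries, at 184.8, 187.4, 248.4, 207.2 and 235.4 CPM in the non-lesional libraries and at 250.4, 161.6, 271.0, 236.7 and 244.2 CPM in the lesional libraries, in the same order of replicates. Lesional replicate 5 was the lowest of all 15 libraries, whereas the other 4 lesional libraries were above the WT median of 188.0 CPM. The group means were 207.1 ± 51.2, 212.6 ± 28.5 and 232.8 ± 41.8 CPM (SD, n = 5 each). Lesional skin differed from WT skin by a log2 fold change of 0.17 (SE 0.18, adjusted p = 0.939), which was smaller than the spread within WT skin. The corresponding values were 0.04 (SE 0.14) for non-lesional against WT skin and 0.13 (SE 0.15) for lesional against non-lesional skin. With lesional replicates 2 and 11 left out the lesional values were 0.12 (SE 0.20) against WT and 0.09 (SE 0.16) against non-lesional skin.

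H2-Eb1 encodes the β chain of I-E. C57BL/6 mice are known to lack surface I-E because their gene for its α chain does not make a transcript; the mice here are labelled C57BL/6 and were backcrossed to it, and their MHC haplotype was not examined. It lies at chr17:34305867-34316674 on the plus strand, and its proximal promoter is the one shown above with an X box core and both Y boxes. Its level was 142.8, 104.4, 167.9, 161.0 and 240.4 CPM in WT, 131.4, 166.1, 212.5, 165.5 and 172.5 CPM in non-lesional and 168.3, 144.2, 179.5, 188.0 and 177.7 CPM in lesional libraries. The lesional libraries lay inside the WT range. Group means were 163.3 ± 49.7, 169.6 ± 28.9 and 171.5 ± 16.8 CPM (SD, n = 5 each), and the log2 fold changes were 0.05 (SE 0.18), 0.07 (SE 0.19) and 0.02 (SE 0.14) for non-lesional against WT, lesional against WT and lesional against non-lesional skin. The values without lesional replicates 2 and 11 were 0.03 (SE 0.21) against WT and -0.02 (SE 0.15) against non-lesional skin.

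Counts of the chains relative to each other also varied within groups. H2-Aa had between 76.9 and 114.0 counts per 100 counts of H2-Ab1 in WT, between 71.6 and 90.9 in non-lesional and between 59.4 and 89.5 in lesional libraries. H2-Eb1 had between 61.9 and 87.2, between 71.1 and 88.7, and between 66.2 and 89.2 counts per 100 of H2-Ab1. The ranges of the 3 groups overlapped for both ratios. Tag counts were not divided by transcript length and depend on how well each 3′ end is captured, so a ratio is read between libraries and not as the stoichiometry of the chains.

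Cd74 encodes the invariant chain, which also serves as a receptor for the cytokine MIF. It lies on chromosome 18 at 60803848 to 60812652 (GRCm38, plus strand). Its level was 187.9, 180.3, 201.0, 164.8 and 217.8 CPM in WT replicates 1, 4, 7, 10 and 13, it was 211.1, 158.1, 226.5, 195.9 and 191.3 CPM in non-lesional replicates 3, 6, 9, 12 and 15, and it was 245.9, 157.0, 241.4, 228.1 and 218.4 CPM in lesional replicates 2, 5, 8, 11 and 14. Of the lesional libraries, 4 were above every WT library and replicate 5 was below all of them. Cd74 was the member with the smallest p-value in lesional against WT skin.

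The mean of Cd74 was 190.4 ± 20.2 CPM in WT, 196.6 ± 25.6 CPM in non-lesional and 218.2 ± 35.9 CPM in lesional skin (SD, n = 5 each). The log2 fold change between lesional and WT skin was 0.20 (SE 0.15, unadjusted p = 0.197 and adjusted p = 0.928 in edgeR). Leaving out lesional replicate 5 gave 0.30 (SE 0.13, unadjusted p = 0.0404, adjusted p = 0.650), and leaving out lesional replicates 2 and 11 gave 0.11 (SE 0.16, adjusted p = 0.999). Non-lesional skin differed from WT skin by 0.05 (SE 0.11) and lesional from non-lesional skin by 0.15 (SE 0.14), the last being 0.07 (SE 0.15) without lesional replicates 2 and 11. Cd74 had the smallest variation of the 7 genes over the 15 libraries, with a coefficient of variation of 14.2%. Between 27.5 and 47.1 counts of Cd74 were found per 100 counts of the H2-Aa, H2-Ab1 and H2-Eb1 chains together, with group means of 35.3 ± 6.48 in WT, 36.3 ± 6.33 in non-lesional and 37.4 ± 1.77 in lesional skin (SD, n = 5 each).

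H2-DMa and H2-DMb1 encode the α and β chains of DM, which edits the peptides bound to class II molecules in endosomes. H2-DMa, at chr17:34119541-34139101 on the plus strand, was found at 13.97, 16.2, 17.5, 13.5 and 29.7 CPM in WT, at 13.8, 15.3, 9.47, 12.8 and 24.5 CPM in non-lesional and at 20.0, 15.9, 17.6, 12.5 and 11.2 CPM in lesional libraries. WT replicate 13 and non-lesional replicate 15 were the highest, and the remaining 13 libraries lay between 9.47 and 20.0 CPM. The log2 fold change was -0.27 (SE 0.26) for non-lesional and -0.23 (SE 0.26) for lesional against WT skin, and 0.03 (SE 0.26) between lesional and non-lesional skin. Without WT replicate 13 these differences from WT were -0.01 and 0.02, and without lesional replicates 2 and 11 lesional skin differed by -0.29 (SE 0.29) from WT and -0.02 (SE 0.29) from non-lesional skin. Exons of H2-DMa share 360 bases with exons of Brd2 on the opposite strand, and no strand option was listed for the counting, which counts both strands by default, so reads from this overlap cannot be assigned to one gene.

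H2-DMb1, at chr17:34153072-34160230 on the plus strand, was found at 17.5, 13.97, 20.6, 16.4 and 30.8 CPM in WT, at 17.4, 16.6, 29.7, 19.6 and 18.4 CPM in non-lesional and at 36.7, 19.5, 16.8, 27.6 and 21.8 CPM in lesional libraries. The highest level of all was in lesional replicate 2, followed by WT replicate 13 and non-lesional replicate 9, so that each group held a high library. The group means were 19.9 ± 6.56, 20.3 ± 5.35 and 24.5 ± 7.92 CPM (SD, n = 5 each). Lesional skin differed by a log2 fold change of 0.30 (SE 0.26) from WT and 0.27 (SE 0.24) from non-lesional skin, with adjusted p-values of 0.934 and 0.973. Without lesional replicates 2 and 11 the signs turned, with values of -0.05 and -0.08. Non-lesional skin differed from WT skin by 0.03 (SE 0.22). Of the 35-base stretches in the last 500 bases of its transcripts, 23.0% were also found in transcripts of its neighbour H2-DMb2, and since matches that were not unique were dropped before counting, reads from these stretches may be missing from both genes. Between 32 and 82 counts per library stood behind the WT values of H2-DMb1, and between 32 and 79 behind those of H2-DMa.

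Ciita encodes the class II transactivator. It lies at chr16:10480059-10528418 (GRCm38) on the plus strand. Its level was 10.9, 8.73, 11.2, 6.32 and 14.7 CPM in WT replicates 1, 4, 7, 10 and 13, it was 12.02, 14.5, 17.7, 13.2 and 12.7 CPM in non-lesional replicates 3, 6, 9, 12 and 15, and it was 10.9, 8.72, 12.8, 10.53 and 9.71 CPM in lesional replicates 2, 5, 8, 11 and 14. All 5 non-lesional libraries were above the WT median, and 4 of the 5 lesional libraries were below every non-lesional one. The values rest on 15 to 43 counts per library. The order of the group means was non-lesional (14.01 ± 2.25 CPM), lesional (10.53 ± 1.52 CPM) and WT (10.3 ± 3.09 CPM; SD, n = 5 each), and no pair differed past the adjusted threshold.

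The log2 fold change of Ciita was 0.43 (SE 0.23, unadjusted p = 0.0780, adjusted p = 0.9998 in edgeR) for non-lesional against WT skin. It was -0.41 (SE 0.20, unadjusted p = 0.0670, adjusted p = 0.973) for lesional against non-lesional skin and 0.02 (SE 0.25) for lesional against WT skin. Without WT replicate 13 the first of these was 0.59 (SE 0.24, unadjusted p = 0.0220, adjusted p = 0.994), and in limma it was 0.51 (SE 0.23, unadjusted p = 0.0379, adjusted p = 0.999). Without lesional replicate 8 the second was -0.49 (SE 0.22, unadjusted p = 0.0456, adjusted p = 0.746). Without lesional replicates 2 and 11 lesional skin differed by -0.42 (SE 0.26) from non-lesional and by 0.01 (SE 0.30) from WT skin. None of its adjusted p-values passed the threshold under any alternative tried. Exons of Ciita share 329 bases with those of Dexi on the opposite strand, and reads from the overlap cannot be assigned to one of them for the same reason.

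**Figure D2:**
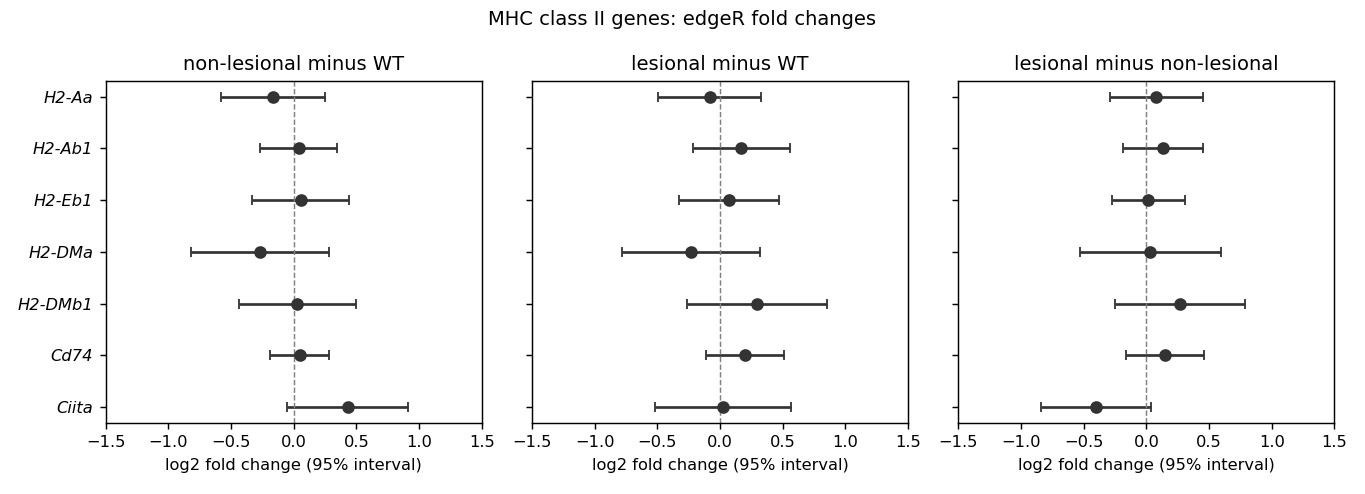
Points are edgeR log2 fold changes of the 7 genes in the 3 comparisons, and bars are 95% intervals (n = 5 libraries per group). All 21 intervals cross 0, and Ciita lies farthest from 0 in non-lesional against WT skin (0.43) and in lesional against non-lesional skin (-0.41).

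Other class II chains were low or absent. H2-DMb2, the second β chain of DM, had group means of 7.10 ± 2.66, 5.94 ± 2.35 and 7.24 ± 2.24 CPM in WT, non-lesional and lesional skin (SD, n = 5 each). H2-Oa and H2-Ob encode the DO molecule, which restrains DM mainly in B cells; they had 16 and 20 counts over all 15 libraries and were at 0 in 8 and 4 of them. H2-Eb2 had 1 count in all. Only H2-DMb2 passed the filter on low counts, and its log2 fold changes were -0.26 (SE 0.34), 0.03 (SE 0.34) and 0.29 (SE 0.34) for non-lesional against WT, lesional against WT and lesional against non-lesional skin; the last 2 were -0.03 (SE 0.40) and 0.24 (SE 0.41) without lesional replicates 2 and 11.

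The factors that bind class II promoters with CIITA were also compared. Of 7 such genes 6 were tested, and none had an unadjusted p under 0.05 in any comparison. Their median log2 fold changes were -0.01, -0.08 and -0.07. Rfxap, a subunit of the RFX complex, had the smallest p-value of the list, with a log2 fold change of -0.47 (SE 0.23, unadjusted p = 0.0641 in edgeR, adjusted p = 0.973) between lesional and non-lesional skin, and -0.25 (SE 0.24) without lesional replicates 2 and 11. Nfyb, a subunit of NF-Y, differed by 0.25 (SE 0.14, unadjusted p = 0.0866, adjusted p = 0.9998) between non-lesional and WT skin. Marchf1 and Marchf8, ubiquitin ligases that send class II molecules for degradation, were both tested, and neither passed the adjusted threshold. Marchf1 had log2 fold changes of -0.02 (SE 0.29), 0.29 (SE 0.32) and 0.31 (SE 0.28) for non-lesional against WT, lesional against WT and lesional against non-lesional skin, the last 2 being 0.17 (SE 0.38) and 0.20 (SE 0.33) without lesional replicates 2 and 11. In the same order Marchf8 had log2 fold changes of 0.04 (SE 0.14), -0.29 (SE 0.15) and -0.33 (SE 0.17), and the last 2 were -0.24 (SE 0.16) and -0.28 (SE 0.18) without lesional replicates 2 and 11.

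IFN-γ target genes were set beside the class II genes, since CIITA is itself an IFN-γ target. Many of these targets, Cxcl9 and Cxcl10 among them, are also known to respond to type I interferon, so the list does not tell the interferons apart. Ifng had 1 count in 15 libraries. The summed level of 12 IFN-γ target genes lay between 107.9 and 225.2 CPM in the 5 WT, the 5 non-lesional and lesional replicates 5, 8 and 14, and was 401 CPM in lesional replicate 2 and 783 CPM in lesional replicate 11. The summed level of the 7 class II genes in these 2 libraries was 944 and 909 CPM, inside the range of 622 to 1085 CPM of the other 13. WT replicate 13 (1085 CPM) and non-lesional replicate 9 (970.0 CPM) were above both of them in this sum. Of single members, lesional replicate 2 was the highest of all 15 libraries for Cd74 (245.9 CPM) and H2-DMb1 (36.7 CPM).

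**Figure D3:**
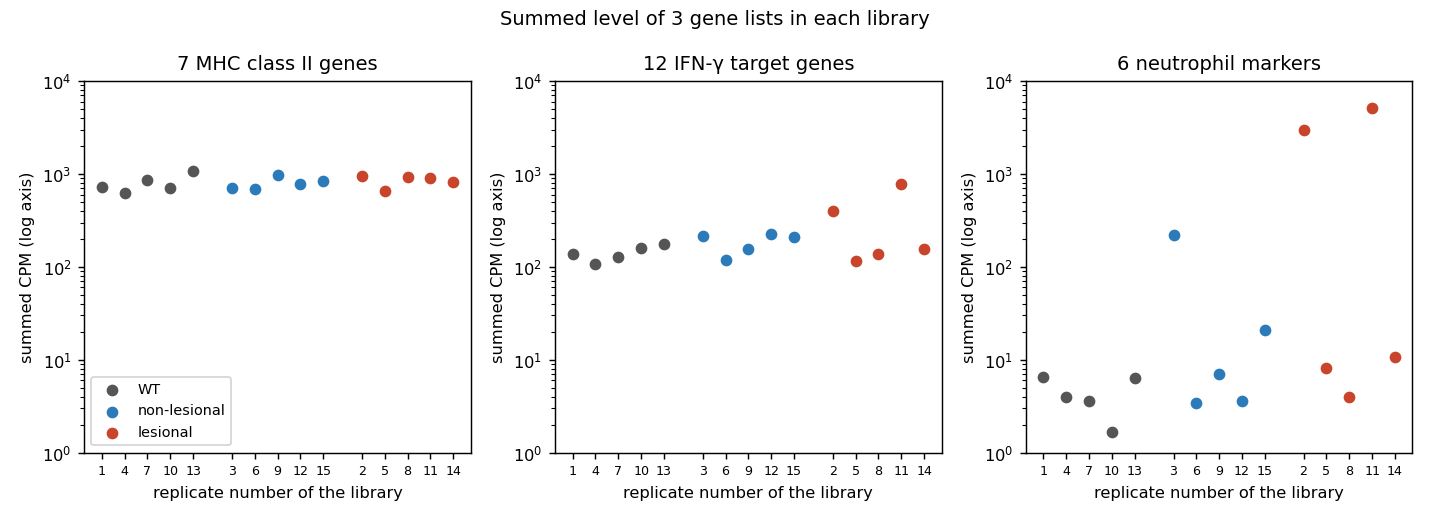
The summed CPM of 3 gene lists is plotted on a log axis for each library, labelled by its replicate number. Lesional replicates 2 and 11 lie above all others for the 12 IFN-γ targets (401 and 783 CPM) and the 6 neutrophil markers (2991 and 5132 CPM), while for the 7 class II genes they lie at 944 and 909 CPM, among the other libraries.

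In lesional replicates 2 and 11 the neutrophil sum was nearly all S100a8 and S100a9, which inflamed keratinocytes also express; their highest levels were 2408 and 2707 CPM, while Ly6g and Csf3r, more specific to neutrophils, had 0 counts in all 15 libraries and Cxcr2 and Retnlg reached at most 5.51 and 11.5 CPM. Named IFN-γ targets showed the same 2 libraries. Cxcl9, a chemokine that attracts T cells, was at 17.7 and 61.7 CPM in lesional replicates 2 and 11 and between 1.79 and 10.7 CPM elsewhere. Gbp2, a guanylate-binding GTPase, was at 56.7 and 122.8 CPM in them, at 15.6 to 21.4 CPM in the other lesional libraries, at 13.1 to 20.7 CPM in WT and at 21.4 to 29.8 CPM in non-lesional libraries. All 5 non-lesional libraries were above all WT libraries for Gbp2, with a log2 fold change of 0.53 (SE 0.18, unadjusted p = 0.00727 in edgeR, adjusted p = 0.9998).

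Of the IFN-γ targets, 10 were tested in lesional against WT skin. All 10 had log2 fold changes above 0, 5 of them with an unadjusted p under 0.05 and none past the adjusted threshold, and the median was 1.27. In non-lesional against WT skin the 9 tested were above 0, 2 of them with an unadjusted p under 0.05, and the median was 0.36. In lesional against non-lesional skin the 10 tested were above 0, 1 with an unadjusted p under 0.05, and the median was 0.86. Without lesional replicates 2 and 11 the median was 0.00 against WT skin, with 5 of 10 above 0, and -0.43 against non-lesional skin, with 1 of 11 above 0.

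**Figure D4:**
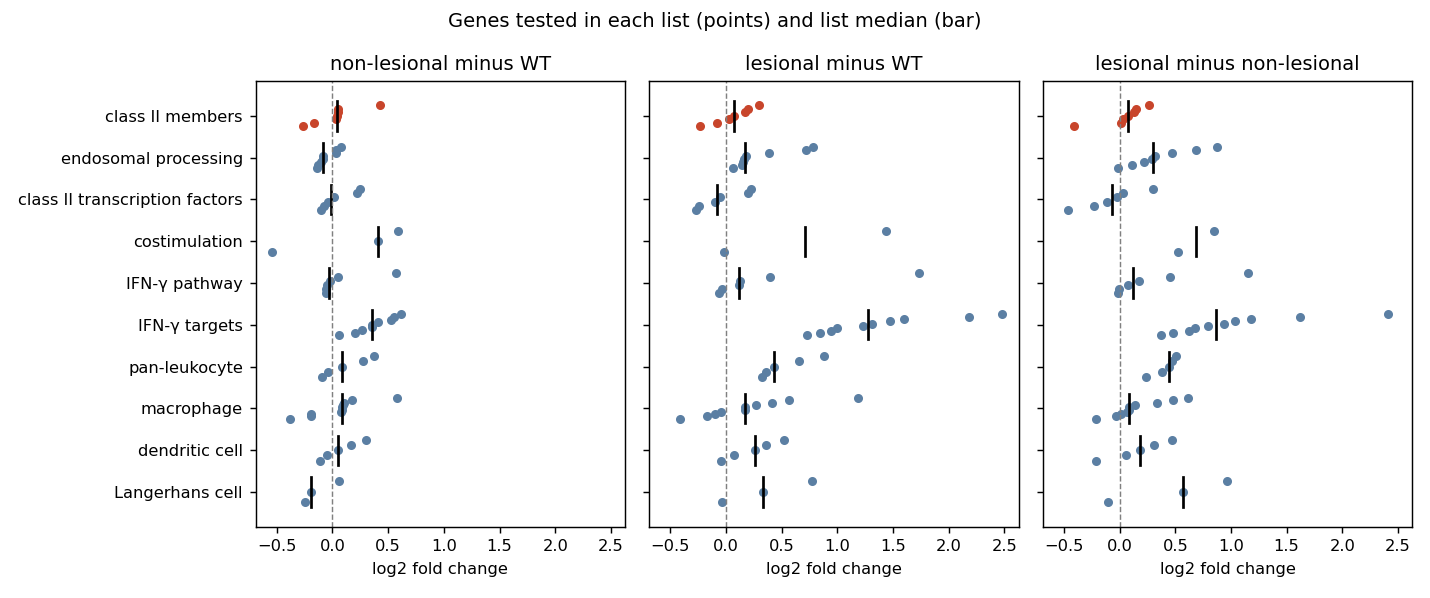
Each point is the edgeR log2 fold change of 1 tested gene of the list named on the left, and black bars are list medians, for the 3 comparisons. In lesional against WT skin the IFN-γ targets have a median of 1.27 with lesional replicates 2 and 11 included and 0.00 without them, whereas the class II genes have medians of 0.07 and 0.01.

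The endosomal genes that prepare peptides and degrade the invariant chain were all tested. In lesional against WT skin all 8 had log2 fold changes above 0, none with an unadjusted p under 0.05, with a median of 0.17. Without lesional replicates 2 and 11 only 1 of 8 was above 0 and the median was -0.09. Ctss, cathepsin S, which makes the last cut of the invariant chain in dendritic cells and B cells, was at 186.4 and 221.6 CPM in lesional replicates 2 and 11 and between 53.5 and 95.8 CPM in the other libraries. Its log2 fold change between lesional and non-lesional skin was 0.87 (SE 0.33, unadjusted p = 0.0215 in edgeR, adjusted p = 0.973), and 0.10 (SE 0.14) without these 2 libraries. The other gene of the list with an unadjusted p under 0.05 in that comparison was Ctsd, cathepsin D (0.47, SE 0.20, and 0.08, SE 0.14, without them). Non-lesional skin had 3 of 8 above 0 against WT and a median of -0.08.

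Of the 6 costimulation genes, 3 were tested in non-lesional against WT skin and 2 in the other comparisons. Cd274, which encodes the inhibitory ligand PD-L1, had log2 fold changes of 0.59 (SE 0.25, unadjusted p = 0.0326) in non-lesional and 1.43 (SE 0.55, unadjusted p = 0.0232) in lesional skin against WT in edgeR, with adjusted p-values of 0.9998 and 0.926. Its level was 33.6 and 66.2 CPM in lesional replicates 2 and 11 and 11.8, 6.40 and 19.4 CPM in lesional replicates 5, 8 and 14, and the lesional value against WT was 0.29 (SE 0.36, unadjusted p = 0.441 in edgeR) without the first 2. Icosl, the ligand of the costimulatory receptor ICOS, had -0.54 (SE 0.27) and -0.02 (SE 0.24), the latter being -0.26 (SE 0.27) without lesional replicates 2 and 11. Cd86 passed the filter only in non-lesional against WT skin (0.41, SE 0.46).

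The markers fixed as defining the cells that carry class II molecules were low, while other markers of the same lists were not. The 10 macrophage markers summed to between 409.3 and 885.3 CPM in WT, between 518.9 and 695.8 CPM in non-lesional and between 521.7 and 758.6 CPM in lesional libraries; Csf1r, the receptor for CSF1, named here after its values were seen, lay between 67.3 and 149.1 CPM. Cd207, langerin of Langerhans cells, lay between 2.33 and 6.67 CPM in the 15 libraries, and its log2 fold changes were 0.06 (SE 0.33), -0.04 (SE 0.37) and -0.10 (SE 0.35), the last 2 being -0.16 (SE 0.47) and -0.22 (SE 0.45) without lesional replicates 2 and 11. Itgax, CD11c of dendritic cells, lay between 0.971 and 6.39 CPM and did not pass the filter. Adgre1, F4/80 of macrophages, lay between 6.67 and 23.3 CPM. None of the 5 B cell markers passed the filter. Ptprc, CD45 of all leukocytes, had group means of 39.8 ± 6.55, 37.4 ± 3.07 and 50.9 ± 9.65 CPM in WT, non-lesional and lesional skin (SD, n = 5 each).

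Leukocyte markers were set beside the class II genes; which cells carried the class II RNA was not measured. All 5 pan-leukocyte markers had log2 fold changes above 0 in lesional against WT skin (median 0.43, 1 with an unadjusted p under 0.05) and against non-lesional skin (median 0.45, 2 with an unadjusted p under 0.05). Ptprc differed by 0.45 (SE 0.16, unadjusted p = 0.0129 in edgeR, adjusted p = 0.973) between lesional and non-lesional skin. With lesional replicates 2 and 11 left out Ptprc differed by 0.29 (SE 0.17, unadjusted p = 0.100 in edgeR), and the list medians were 0.17 against WT and 0.03 against non-lesional skin. Counts of the 3 chains per count of Ptprc lay between 11.2 and 16.4 in WT, between 13.3 and 17.4 in non-lesional and between 10.1 and 13.9 in lesional libraries, with means of 13.9 ± 2.06, 14.7 ± 1.60 and 11.6 ± 1.42 (SD, n = 5 each). The ranges overlapped. Lesional replicates 2, 5, 8 and 11 had 11.5, 10.98, 11.41 and 10.06, below the lowest non-lesional value of 13.25, and replicate 14 had 13.9. The ratio and the part of leukocyte content in the class II values were not tested.

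Macrophage markers were mixed. Of the 10 genes of the list, 6 were above 0 in lesional against WT skin (median 0.17), with Aif1 (1.19, SE 0.29, unadjusted p = 0.00113 in edgeR, adjusted p = 0.926) and C1qa (0.57, SE 0.25) at an unadjusted p under 0.05. In lesional against non-lesional skin 8 of 10 were above 0 (median 0.09), with C1qa (0.48, SE 0.21) and C1qb (0.33, SE 0.15) at an unadjusted p under 0.05 and none past the adjusted threshold. When lesional replicates 2 and 11 were left out of the comparison with WT skin, 4 of 10 were above 0 and the median was -0.06, with Aif1 at 0.83 (SE 0.30, unadjusted p = 0.0138 in edgeR) and C1qa at 0.24 (SE 0.24, unadjusted p = 0.342). Against non-lesional skin 6 of 10 were then above 0 and the median was 0.12, with C1qa at 0.16 (SE 0.17), C1qb at 0.23 (SE 0.15) and Adgre1 at -0.58 (SE 0.27, unadjusted p = 0.0462 in edgeR, adjusted p = 0.993), beside -0.21 (SE 0.26) for Adgre1 with all libraries. The summed level of the 4 Langerhans cell markers ranged from 79.0 to 144.4 CPM in WT, from 59.8 to 110.0 CPM in non-lesional and from 52.9 to 279.8 CPM in lesional libraries, the highest being lesional replicate 11. That list also holds Epcam and Cd24a, which keratinocytes express. The summed level of 12 dendritic cell markers ranged from 169.9 to 282.1, from 182.3 to 268.2 and from 168.3 to 328.4 CPM.

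Across the 15 libraries the 7 genes varied together to different degrees. The 21 pairs had Pearson correlations of log2 CPM between 0.033 and 0.815, with a median of 0.488. The highest was 0.815 between H2-Ab1 and H2-Eb1, followed by 0.783 between Cd74 and H2-Ab1 and 0.763 between H2-DMb1 and H2-Aa; with group means taken off H2-DMb1 and H2-Aa had the highest value, 0.831. By contrast, H2-DMa had values of 0.369 or less with every other member. These are descriptions over libraries that share their groups. Of 12 relations tested by permutation (100000 resamples, two-sided, Benjamini-Hochberg adjustment over the 12), 3 had an adjusted p under 0.05 for Pearson's r. H2-Aa followed H2-Eb1 (r = 0.760, permutation p = 0.00069, adjusted p = 0.00828; rho = 0.746, permutation p = 0.00187, adjusted p = 0.0224). H2-Aa followed H2-Ab1 (r = 0.710, permutation p = 0.0037, adjusted p = 0.0222; rho = 0.707, permutation p = 0.0043, adjusted p = 0.0258).

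Neither relation passed the threshold once its 2 farthest libraries were left out. Without WT replicates 13 and 4, the farthest from the median of H2-Aa, r was 0.602 and 0.569, with adjusted permutation p-values of 0.107 for both. After the group means were taken off, r was 0.813 and 0.769. The permutations with group means taken off ran over all 15 libraries and not within groups, so their p-values may be too small. Leaving out lesional replicates 2 and 11 gave 0.770 (adjusted permutation p = 0.0199) and 0.681 (adjusted permutation p = 0.0695). No relation was detected between the 2 chains of DM (r = 0.121, permutation p = 0.670, adjusted p = 0.731; rho = -0.0143, permutation p = 0.964, adjusted p = 0.964). H2-Aa with Cd74 had r = 0.587 (permutation p = 0.0227, adjusted p = 0.0546; rho = 0.582, permutation p = 0.0250, adjusted p = 0.0501), and 0.582 without the 2 farthest libraries. It passed the threshold with group means taken off (r = 0.660, adjusted permutation p = 0.0266) and with CPM of the library total without TMM (r = 0.636, adjusted permutation p = 0.0444), and had r = 0.515 (adjusted permutation p = 0.177) without lesional replicates 2 and 11.

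Cd74 followed Ptprc (r = 0.634, permutation p = 0.0109, adjusted p = 0.0438; rho = 0.618, permutation p = 0.0163, adjusted p = 0.0490). Without lesional replicate 5 and non-lesional replicate 6, the farthest from the median of Cd74, r was 0.675 (adjusted permutation p = 0.107), with group means taken off it was 0.577 (adjusted permutation p = 0.0539), and without lesional replicates 2 and 11 it was 0.511 (adjusted permutation p = 0.177). No relation past the threshold was found for Cd74 with Cd207 (r = -0.233, permutation p = 0.399, adjusted p = 0.479; rho = -0.0929, permutation p = 0.740, adjusted p = 0.888), Adgre1 (r = 0.410, permutation p = 0.129, adjusted p = 0.173; rho = 0.318, permutation p = 0.248, adjusted p = 0.331), or H2-DMa (r = 0.0326, permutation p = 0.909, adjusted p = 0.909; rho = -0.0179, permutation p = 0.955, adjusted p = 0.964), and without the 2 libraries farthest from the median these were 0.00242, 0.349 and 0.0426.

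Cd74 with Ciita had r = 0.410 (permutation p = 0.130, adjusted p = 0.173) and rho = 0.321 (permutation p = 0.244, adjusted p = 0.331). Its r was 0.576 without the 2 farthest libraries and 0.617 with group means taken off. The last value passed the threshold (adjusted permutation p = 0.0440), but by a p-value that may be too small, since permutation ran across groups. Cd74 with Irf1, a transcription factor induced by IFN-γ, had r = 0.585 (permutation p = 0.0189, adjusted p = 0.0546) and rho = 0.629 (permutation p = 0.0138, adjusted p = 0.0490); r was 0.405 without the 2 farthest libraries. Cd74 with S100a8 had r = 0.504 (permutation p = 0.0529, adjusted p = 0.0906) and rho = 0.504 (permutation p = 0.0589, adjusted p = 0.101) over all 15 libraries. Without the 2 libraries farthest from the median of Cd74, r was 0.53. In S100a8 lesional replicates 2 and 11 form a separate pair, and over the other 13 libraries r was 0.216 (adjusted permutation p = 0.615).

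**Figure D5:**
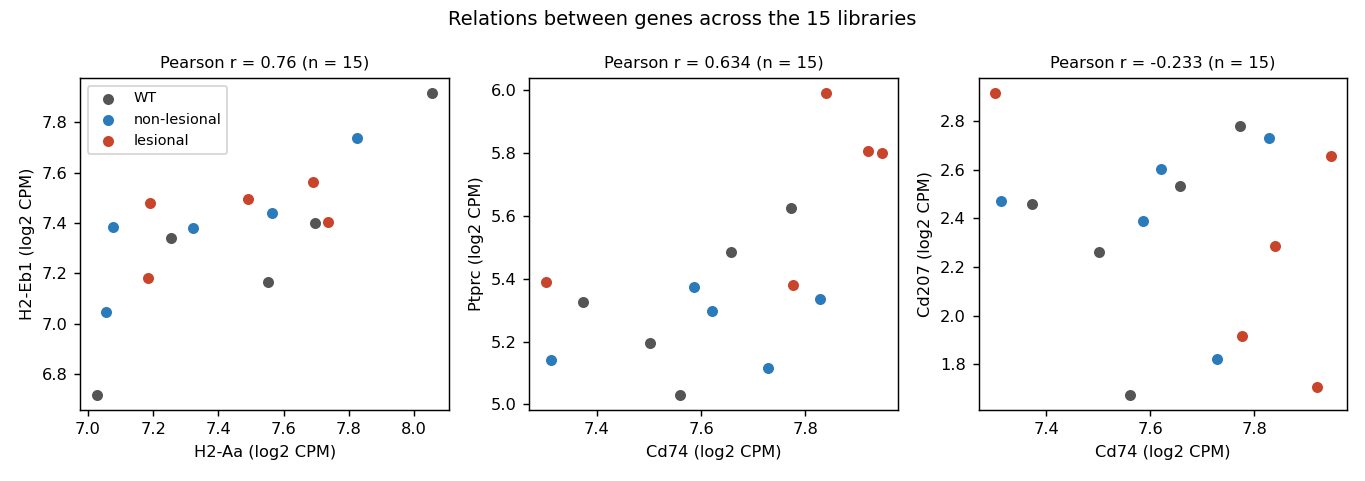
Each point is 1 of 15 libraries, coloured by group, with log2 CPM of both genes on the axes. H2-Aa and H2-Eb1 lie along a line from the lowest to the highest WT library (r = 0.760), Cd74 and Ptprc along a looser one (r = 0.634), and Cd74 and Cd207 along none (r = -0.233).

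Among the 10 genes whose log2 CPM was most like the mean of the 7 class II genes, of 13454 ranked over the 15 libraries, were Dmkn (r = 0.833), Ctsk (0.830), Phf13 (0.813), Fam89a (0.800), Ly6g6c (0.795), Derl1 (0.793), Krtdap (0.786), Prnp (0.786) and Krt80 (0.771). The median r of all ranked genes was 0.004 and the 99th percentile was 0.640. Dmkn, Krtdap and Krt80 are genes of differentiating keratinocytes, and Ctsk encodes cathepsin K, a protease of osteoclasts and fibroblasts. None of the leukocyte markers listed above was among the 10. Their own correlations with this mean are not given here, so the ranking does not show which cells carried the class II RNA. The ranking is a description of 15 libraries and carries no test.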

How the data were processed

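The authors clipped QuantSeq 3′ reads with cutadapt 2.10, mapped them with Subread to GRCm38 and the ERCC spike-ins, kept uniquely mapped, non-secondary matches of high mapping quality with SAMtools 1.7-2, and deposited raw counts per gene from featureCounts 2.0.1, in which a read over several genes counts for each. The listed options name no strand setting, so both strands count by default; the annotation release is not given in the sources used here. The methods give the same RNA integrity limit as a reason for exclusion and as the range included, so the RNA quality of these libraries is unclear. A deposited CPM table was not used. The 92 spike-in rows summed to 0 and were left out. Reads were not collapsed to molecules, so counts are not independent molecules.

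Each pair of groups was fitted alone with edgeR 4.0.16 in R 4.3.3 (TMM, filterByExpr, robust quasi-likelihood F-test, Benjamini-Hochberg over all genes tested, threshold 0.05), checked on simulated counts. Levels are CPM with TMM factors over 15 libraries, and log2 CPM used a prior count of 2. DESeq2 1.42.0, limma 3.58.1, other normalizations and filters, and leaving out libraries were alternatives. Symbols in the lists numbered 123, all matched, 4 of them by gene identifier. Positions are from GENCODE M21 and promoters from RefSeq.

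The genes, lists and tests were chosen with earlier results of these data known. All 7 genes are named; of other lists at most 3 genes with the smallest p-values in any comparison, the defining markers, Otulin, the genes of the 12 relations and the 10 genes most like the 7. H2-Oa, H2-Ob, H2-Eb2, Cd86, Icosl, Marchf1, Ifng, Brd2, Dexi, Epcam, Cd24a, S100a9, Ly6g, Csf3r, Cxcr2 and Retnlg were named to account for the lists. A few of the genes this rule names are not reported here.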

Additional observations from a re-analysis of the deposited data

Results flagged for a closer look

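Of 36 groups of 5 libraries searched for a library far from the others (the 7 genes, their sum, 3 ratios and the library total in each group), 2 held one by Dixon's test at the 95% level; chance flags about 1 in 20 groups. H2-DMa was at 29.7 CPM in WT replicate 13 and between 13.5 and 17.5 CPM in the other WT libraries. H2-DMb1 was at 29.7 CPM in non-lesional replicate 9 and between 16.6 and 19.6 CPM in the other non-lesional libraries.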

How the results depend on the processing

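No paired analysis was made, because the sources used here do not state which samples share a mouse or a litter. Each library has its own replicate number, so the numbers neither show nor exclude pairs. The comparison of lesional with non-lesional skin therefore treated the libraries as independent. Of 392 values recomputed for the 21 results of the 7 genes, 0 passed the adjusted threshold and 33 changed sign, in 13 of the 21 results; the number of the 7 genes called was 0 under every alternative tried. Over all genes, non-lesional against WT skin gave 3 calls with DESeq2, 18 with no filter on low counts (27255 genes tested), and 0 to 5 when each replicate was left out, with the 5 without non-lesional replicate 6. Lesional against WT skin gave 1 call with DESeq2. The number of relations past the adjusted threshold was 3, and it was 0 without the 2 libraries farthest from the median and 1 without lesional replicates 2 and 11. It was 4 after taking off group means and 4 with CPM of the library total. Permutation after taking off group means ran across groups, so the count under that setting may be too high. The median log2 fold change of the 7 genes, with each replicate left out in turn, ran from -0.07 to 0.19 for non-lesional against WT, from -0.03 to 0.25 for lesional against WT and from 0.02 to 0.19 for lesional against non-lesional skin. The gene lists without lesional replicates 2 and 11 were chosen after seeing the data. The cause of these shifts was not tested. Depth limits H2-DMa, H2-DMb1 and Ciita most, with 15 to 82 counts in a library.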
